A study of Mus musculus with 4 samples.

Results

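The trefoil peptides Tff1, Tff2 and Tff3, the whey acidic protein family members Wfdc1, Wfdc2, Wfdc3, Wfdc12, Wfdc15b and Slpi, and 2310057J18Rik, the mouse homolog of LEG1, were examined in the non-tumorous liver of WT and hepatocyte-specific G9a-deficient mice. These 10 genes, of 18193 named by the array annotation, were read at the 11 probe sets assigned to 1 of their symbols alone. They were picked because the signals of Tff3, Wfdc12 and 2310057J18Rik rise in the G9a-deficient livers, and the other members were added as their relatives. The difference between genotypes therefore helped to choose the set, and it is described for all 10 genes without a test.

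The RNA came from 2 WT mice, which carried Alb-Cre with both G9a alleles intact (Alb-Cre; G9a+/+), and from 2 G9aΔHep mice (Alb-Cre; G9aflox/flox, labelled G9aKO), with 1 GeneChip Mouse Genome 430 2.0 array for each mouse. Alb-Cre places the recombinase under the albumin promoter, which is active in hepatocytes, and RNA of whole liver also holds that of cells in which it is not active. How far other epithelial cells of the liver, such as those of bile ducts, had lost G9a is not known here. All mice were males backcrossed to C57BL/6 and 30 weeks old, and all had received 25 mg/kg DEN, a DNA-damaging carcinogen, at 15 days of age and then 22 weekly injections of 0.5 ml/kg CCl4, a hepatotoxin, so no untreated liver enters the comparison. Values are MAS5 signals, a linear brightness scaled per array, and each probe set is called Present, Marginal or Absent on each array from its own probes; signals of different genes are not compared. The signal of Ehmt2, which encodes G9a, was 640 and 492 in WT and 174 and 164 in G9aΔHep liver at its detected probe set (adjusted p = 0.063 from limma), Present in WT only and at least 3.33-fold higher there, and where that probe set lies with respect to the excised exons is not known here. All 7 hepatocyte markers examined, among them Alb, Cps1 and Fgb, were detected. The number of arrays limits the precision, and an exact permutation test of 2 against 2 arrays cannot give a two-sided p below 0.33.

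Trefoil peptides are small secreted proteins built on a compact fold held by disulfide bonds, and they are released with mucus by the lining of the stomach, the gut and other mucosae, where they help the epithelium to close after injury. Tff1 and Tff2 are mainly gastric, whereas Tff3 is the trefoil peptide of goblet cells in the intestine. Whey acidic protein family members carry a core of disulfide-bonded cysteines, and several of them inhibit serine proteases or kill bacteria. Slpi, the secretory leukocyte protease inhibitor, blocks neutrophil elastase and cathepsin G. LEG1 was named as a liver-enriched gene in zebrafish, where its secreted product is needed for the growth of the embryonic liver.

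Promoters of 6 of the 10 members were in the RefSeq table used here (GRCm38.p6; 250 bases before and 50 after the start of the gene), and the 3 of them whose genes differed most between genotypes are printed for that reason. Capitals mark the motif found in each, which is TGTTTGC, a variant forkhead factor motif, on either strand for Wfdc12 and Wfdc15b and GTTAAT, part of the HNF1 motif, on either strand for 2310057J18Rik.
Wfdc12 (chr2:164190509-164190808, minus strand): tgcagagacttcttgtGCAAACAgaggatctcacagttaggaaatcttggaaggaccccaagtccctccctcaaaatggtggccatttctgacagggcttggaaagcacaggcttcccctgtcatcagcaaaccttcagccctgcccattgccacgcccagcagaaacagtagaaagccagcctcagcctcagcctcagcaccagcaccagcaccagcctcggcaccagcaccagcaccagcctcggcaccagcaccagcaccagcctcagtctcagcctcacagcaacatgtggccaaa
Wfdc15b (chr2:164221614-164221913, minus strand): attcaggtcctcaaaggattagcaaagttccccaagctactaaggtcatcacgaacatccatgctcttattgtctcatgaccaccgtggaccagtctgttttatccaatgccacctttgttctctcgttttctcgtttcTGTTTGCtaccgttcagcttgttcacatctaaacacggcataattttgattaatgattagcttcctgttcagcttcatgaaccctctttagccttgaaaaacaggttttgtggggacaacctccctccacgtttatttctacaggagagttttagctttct
2310057J18Rik (chr10:28986257-28986556, minus strand): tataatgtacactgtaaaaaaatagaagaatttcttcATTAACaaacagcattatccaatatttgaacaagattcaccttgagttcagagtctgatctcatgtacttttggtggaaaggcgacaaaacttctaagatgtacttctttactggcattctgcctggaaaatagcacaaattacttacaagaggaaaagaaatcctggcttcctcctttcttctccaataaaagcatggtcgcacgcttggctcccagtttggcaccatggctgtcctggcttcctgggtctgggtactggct
The forkhead variant starts at -234 in Wfdc12 and at -111 in Wfdc15b, counted from the start of the gene, and 5.07% of the 32851 promoters in the table hold it. GTTAAT, only a part of the HNF1 motif, starts at -213 in 2310057J18Rik and is held by 7.1% of all promoters. Neither motif was found in the promoters of Wfdc2, Wfdc3 and Slpi, and the Slpi promoter held CACGTG, an E-box, as do 7.15% of promoters. Another forkhead form, TGTTTAC (3.65% of promoters), and the STAT motif TTCCNGGAA (1.15%) were in none of the 6, and none of the searched motifs overlapped another. Further forms of the forkhead motif were not searched. These letters describe the windows and were not set against any measure of binding. The 3 printed promoters held 3, 7 and 3 CpG dinucleotides, against a median of 7 over all promoters. Those of Wfdc2, Wfdc3 and Slpi held 16, 3 and 2, so low counts were also found at members whose groups overlapped.

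For 3 members the probe set was Absent in both WT livers and Present in both G9aΔHep livers. Tff3, the goblet cell peptide, had signals of 476 and 217 on the WT arrays, Absent on both, and 8424 and 3083 on the G9aΔHep arrays, Present on both. Wfdc12, known under its earlier name Swam2 as an antibacterial peptide, read 159 and 202 in WT liver and 3346 and 1499 in G9aΔHep liver, with the same calls. 2310057J18Rik read 8.14 and 11.6 in WT liver, below the lowest Present signals of those arrays, 21.1 and 18, and 6122 and 836 in G9aΔHep liver. For all 3 genes the lower G9aΔHep signal lay several times above the higher WT signal, and the first G9aΔHep array was the higher one. Set against WT signals raised at least to the lowest Present signal of the array, the geometric means were at least 15.9-fold higher for Tff3, 12.5-fold for Wfdc12 and 116-fold for 2310057J18Rik. Without the first G9aΔHep array these bounds were 9.6-fold, 8.36-fold and 42.9-fold, and without the second 26.2-fold, 18.7-fold and 314-fold. The probe set of 2310057J18Rik is of the type that can match more than 1 transcript.

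Wfdc15b, the relative of Wfdc12 once named Swam1, behaved alike but was detected in both genotypes. Its signals were 114 and 107 in WT liver and 1343 and 591 in G9aΔHep liver, Present on all 4 arrays. On the log2 scale WT liver had a mean of 6.79 ± 0.07 (SD, n = 2) and G9aΔHep liver one of 9.80 ± 0.84 (SD, n = 2), which is 3.01 apart or 8.05-fold, and 5.34-fold or 12.1-fold without the first or the second G9aΔHep array. The WT signals lay within 1.07-fold of each other and under the 95% quantile of Absent signals on those arrays, 170.5 and 174.9, although the probe set was called Present, so the WT level is uncertain.

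**Figure D1:**
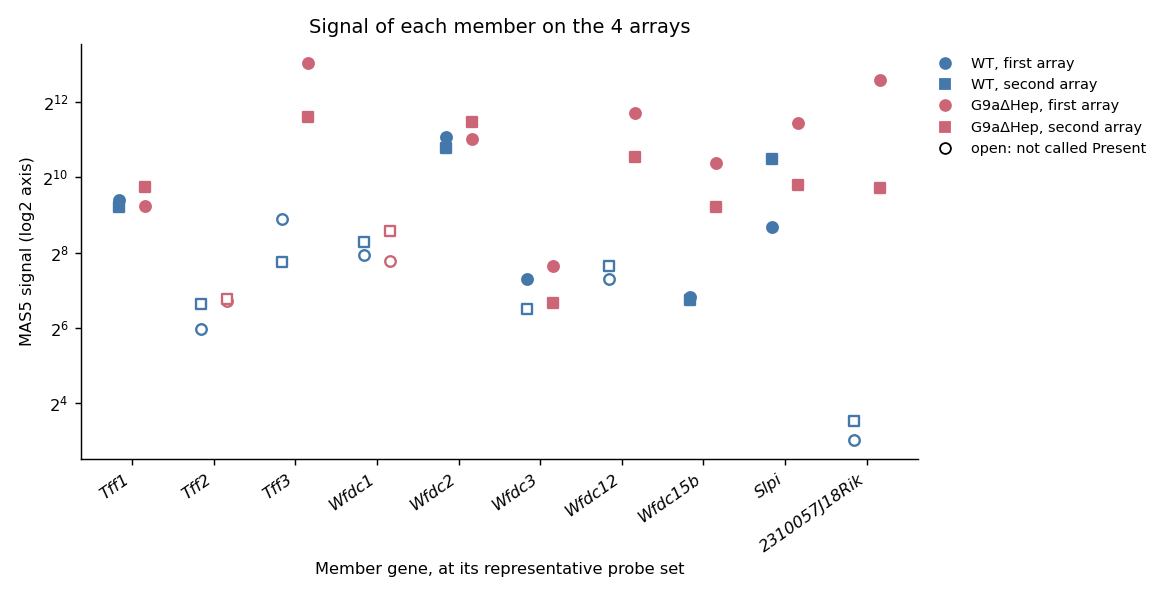
MAS5 signals (log2 axis) of the 10 members on the 4 arrays, with 1 probe set shown for each gene; circles are the first and squares the second array of a genotype, and open symbols were not called Present. Tff3, Wfdc12, Wfdc15b and 2310057J18Rik lie clearly higher in G9aΔHep liver, at 591 or above on both arrays, while the symbols of Tff1, Wfdc1, Wfdc2, Wfdc3 and Slpi overlap between genotypes.

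The other trefoil peptides were close in both genotypes. Tff1, a gastric peptide that is induced by oestrogen in breast cancer cells, was Present on all 4 arrays, at 673 and 595 in WT and 599 and 860 in G9aΔHep liver, a difference in mean log2 signal of 0.18 with overlapping groups. Tff2, a gastric peptide with a pair of trefoil domains, was not called Present on any array, at 63.4 and 99.2 in WT and 105 and 110 in G9aΔHep liver. The G9aΔHep signals were the higher ones, but all 4 lay below the 95% quantile of Absent signals, 170.5 to 180.9 over the arrays. Tff3, Tff2 and Tff1 follow one another on chromosome 17 with 0 protein-coding genes between them in RefSeq order. A large difference was thus seen at the first of these adjacent genes and neither of the others.

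Among the remaining whey acidic protein genes, the groups overlapped in every case. Wfdc2, which encodes the tumour marker HE4, was Present on all arrays at 2146 and 1748 in WT and 2079 and 2826 in G9aΔHep liver, a log2 difference of 0.32. Wfdc3 was read at 2 probe sets. At the detected one its signals were 157 and 91.2 in WT and 202 and 101 in G9aΔHep liver, a log2 difference of 0.26, and at the other, Absent throughout, the difference was -0.45 with G9aΔHep signals of 10.4 and 118. Wfdc1, a growth-inhibiting protein of the prostate stroma also called ps20, was Absent on all arrays, at 246 and 313 in WT and 219 and 379 in G9aΔHep liver.

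Slpi, the elastase inhibitor, varied more within each genotype than between them. Its signals were 413 and 1426 in WT and 2763 and 886 in G9aΔHep liver, Present on all 4 arrays. The log2 difference of 1.03 fell to 0.13 without the first WT array and to 0.21 without the first G9aΔHep array, and was 1.92 and 1.85 without the second arrays of WT and G9aΔHep. The WT arrays differed by 1.79 on the log2 scale, and 1.14% of the 10350 genes that 2 or more arrays called Present were as far apart or farther in WT liver.

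In all, 5 of the 10 members had both G9aΔHep signals above both WT signals, 0 had both below, and 5 overlapped. Over all 18193 genes, each at its brightest probe set, 20.4% had both G9aΔHep signals above both WT signals and 17.8% had both below. A difference of at least 4-fold upwards was reached by 4 members, against 2.15% of all genes, and downwards by 0, against 1.69%. Among the 10350 genes that 2 or more arrays called Present, these shares were 22.3%, 19.3%, 0.638% and 0.116% in the same order. The median log2 difference of the 10 members was 0.73 and that of all genes 0.02. Since the set was picked from these differences, nothing is read from the counts. Of the members, 8 were Present on at least 2 arrays at 1 probe set or more, and Tff2 and Wfdc1 were not. Ranked from the most positive log2 difference downwards, 2310057J18Rik (7.87) stood first among the 10350 genes so detected, Tff3 (3.99) had rank 7, Wfdc12 (3.64) rank 8, Wfdc15b (3.01) rank 26 and Slpi (1.03) rank 280.

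**Figure D2:**
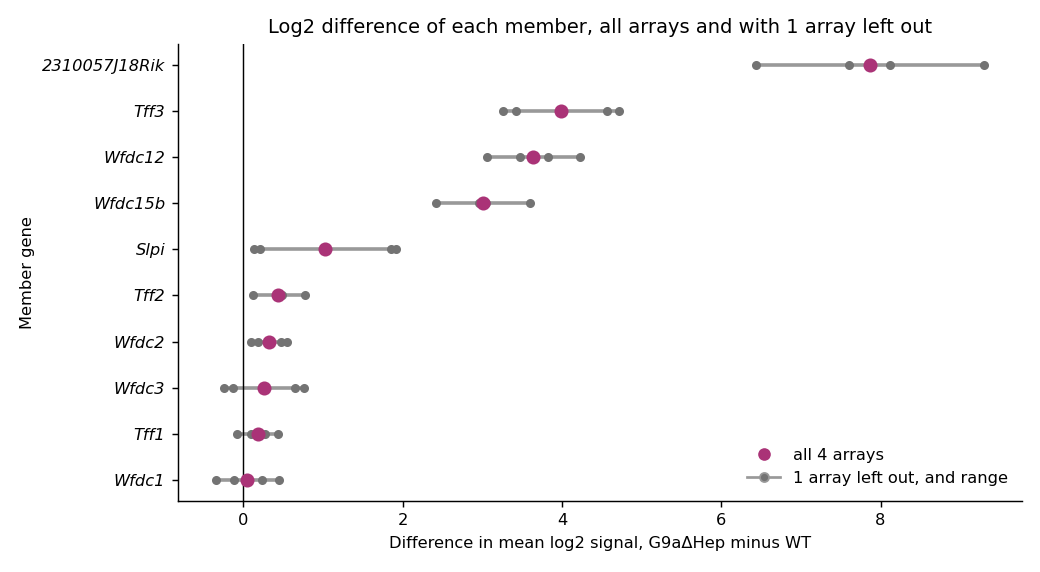
Difference in mean log2 MAS5 signal, G9aΔHep minus WT, of each member with all 4 arrays (large points) and with 1 array left out (small points, joined by their range). The lowest values of 2310057J18Rik, Tff3, Wfdc12 and Wfdc15b are 6.43, 3.26, 3.06 and 2.42, whereas the ranges of Tff1, Wfdc1 and Wfdc3 span 0.

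The G9aΔHep mice differed from each other in the members with the largest differences. The first array was 2.73-fold higher than the second for Tff3, 2.23-fold for Wfdc12, 2.27-fold for Wfdc15b and 7.33-fold for 2310057J18Rik. As a measure of how usual this is, 1.66%, 3.3%, 3.06% and 0.242% of the 10350 genes were as far apart or farther between these arrays, where the median distance was 0.22 and the 95% quantile 0.99 on the log2 scale. Of all these genes, 52.2% were higher on the first array. Tff1 and Wfdc2 were higher on the second array, by 1.44-fold and 1.36-fold. In WT liver Wfdc12, Wfdc15b and 2310057J18Rik were 1.27-fold, 1.07-fold and 1.42-fold apart, and Tff3 was 2.19-fold apart at signals called Absent.

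Wfdc12, Wfdc15b, Slpi, Wfdc2 and Wfdc3 lie in this order in a cluster on chromosome 2. RefSeq lists 31 protein-coding genes from Wfdc12 to Wfdc3, and 21 of them were named on the array. Wfdc15a, the 1 gene between Wfdc12 and Wfdc15b, was Absent on all arrays, with signals of 136 and 104 in WT and 65.1 and 85.7 in G9aΔHep liver. The seminal vesicle genes Svs2, Svs3a, Svs4, Svs5 and Svs6, between Wfdc15b and Slpi, were also Absent throughout. In total 12 of the 16 cluster genes that are not members were not Present on any array. The other 4, Sdc4, Sys1, Dbndd2 and Pigt, were tested, and 0 passed limma at an adjusted p under 0.05 (adjusted p = 0.988, 0.991, 0.571 and 0.113). Over all 10350 genes 0.319% passed as higher and 0.0676% as lower, and 0 by the methods' t-test after adjustment. Pigt, a subunit of the GPI transamidase, had an unadjusted p of 0.000908 and signals of 137 and 162 in WT and 442 and 377 in G9aΔHep liver. The large differences in this cluster were thus at Wfdc12 and Wfdc15b, on either side of an undetected gene.

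**Figure D3:**
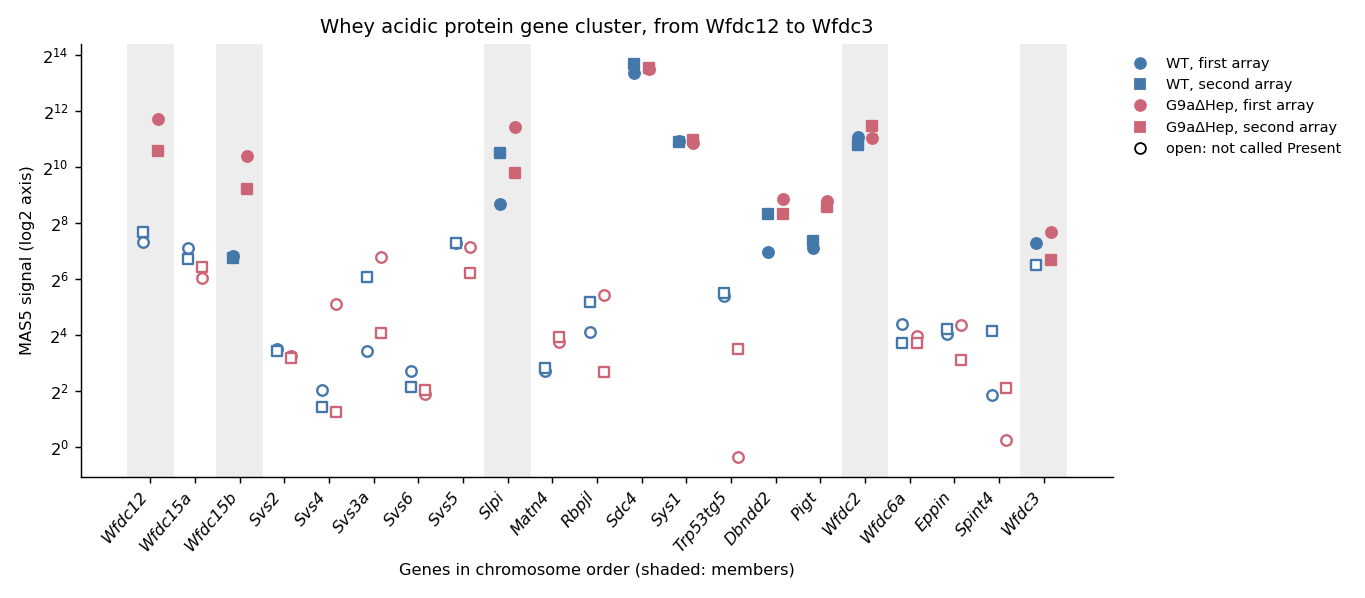
MAS5 signals (log2 axis) of the 21 array genes of the chromosome 2 cluster, in chromosome order from Wfdc12 to Wfdc3, with members shaded; symbols are as in the plot of the members and open symbols were not called Present. Wfdc12 and Wfdc15b stand apart between genotypes, Slpi is spread within both, and Wfdc15a and the Svs genes are open on every array.

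The wider neighbourhoods were compared by taking the 10 tested genes on each side of each member. Of the 84 neighbours, 0 passed limma in either direction, 13 had an unadjusted p under 0.05, as had 613 higher and 424 lower of the 10350 genes tested, or 10%, and the median log2 difference was 0.05. The medians were 0.07 for 20 genes around the trefoil cluster, 0.01 for 24 around the whey acidic protein cluster, -0.04 for 20 around Wfdc1 and 0.10 for 20 around 2310057J18Rik on chromosome 10. Single genes lay farther out, from -3.10 to 0.75, -0.70 to 1.45, -0.81 to 0.70 and -1.50 to 0.99 in the same order. The lowest, Hsf2bp near the trefoil cluster, had an adjusted p of 0.212 from limma. Ehmt2, the targeted gene, is on chromosome 17 as well, and 71 tested genes lie between it and Tff3.

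Relatives and partners of the members, listed by their known roles, were tested in the same fit. Of 17 other genes with a whey acidic protein domain, 10 were on the array and 7 of these, Wap and Eppin among them, were not Present on any array. Wfdc17, expressed by macrophages, and Wfdc21 were tested and neither passed, with log2 differences of 0.51 (SE 0.27) and -0.08 (SE 0.12). Wfdc18 was Present on the first G9aΔHep array only and was not tested. It read 62.5 and 85.3 in WT and 288 and 112 in G9aΔHep liver, higher on both G9aΔHep arrays, with only the 288 above the range of most Absent signals. Of 24 genes of mucins and mucous secretion on the array, 21 were not Present on any array, including Muc2, Muc5ac, Agr2, Fcgbp and Spdef, which serve the goblet cells that normally secrete Tff3. The 2 tested, Clca1 and Muc16, had log2 differences of 0.11 (SE 0.72) and 0.05 (SE 0.33). Partners and receptors of trefoil peptides were mostly undetected, 8 of 11, and 3 were tested. Cxcr4, a chemokine receptor reported to respond to Tff2, had a log2 difference of 0.74 (SE 0.48, adjusted p = 0.661), Ackr3 one of -0.65 (SE 0.46, adjusted p = 0.689) and Egfr one of -0.18 (SE 0.41, adjusted p = 0.915). Serine proteases of neutrophils, mast cells and pancreas, among them the Slpi targets Elane and Ctsg, were not Present on any array for 12 of 15 genes, and Cela1 (0.02, SE 0.19) and Klk1 (-0.06, SE 0.20) were the ones tested. In these 4 lists 0 genes passed in either direction and 0 of the tested genes had an unadjusted p under 0.05. Their median log2 differences, in the order given, were 0.22, 0.08, -0.18 and -0.02, against 0.02 over all genes tested, and none of these medians, each over 2 or 3 genes, kept its sign when 1 array was left out. Without the first or the second G9aΔHep array they were -0.02 or 0.46 for the whey acidic protein list, -0.20 or 0.36 for the mucins, -0.45 or 0.09 for the partners and -0.05 or 0.02 for the proteases, and without the first WT array that of the partners was 0.45 and that of the proteases 0.07.

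Secreted defence proteins of epithelia and their transcription factors were better detected. Of 12 tested defence proteins 0 passed limma, and 5 had an unadjusted p under 0.05, against 10% of all genes tested. The median log2 difference of the 12 was 0.06, and it did not keep its sign when 1 array was dropped. Dropping the first G9aΔHep array gave -0.06, and dropping the second gave 0.63. For the WT arrays these values were 0.24 and -0.01 in the same order. Over the defence genes Present on all 4 arrays the median was 0.42. Defb1, a beta-defensin, had signals of 393 and 238 in WT and 820 and 675 in G9aΔHep liver, a log2 difference of 1.28 (SE 0.28, adjusted p = 0.212). Pigr, which carries immunoglobulin A across epithelia into bile, differed by -0.27 (SE 0.09, adjusted p = 0.4) and Saa3, an acute phase protein, by -0.72 (SE 0.26, adjusted p = 0.452). Of 14 tested epithelial transcription factors 0 passed and 2 had an unadjusted p under 0.05, with a median of 0.12. This median was 0.06 after centring of each array, 0.19 over the genes Present on all 4 arrays, and 0.11 to 0.25 with 1 array left out, the highest without the first WT array. Gata6 differed by 0.62 (SE 0.25, adjusted p = 0.498), Foxa3 by 0.41 (SE 0.15, adjusted p = 0.463) and Foxa2 by 0.31 (SE 0.20, adjusted p = 0.656). Elf3, Ehf, Spdef and Cdx1, factors of gut and glandular epithelia, were not Present on any array.

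Markers of the cells that could carry these transcripts were read on the same arrays. In whole liver, more cells of a type and more RNA per cell cannot be told apart. Of 7 goblet and mucous cell markers 6, and of 5 gastric markers 5, Atp4a and Gkn1 among them, were not Present on any array, and neither were 3 of 7 intestinal markers, Cdh17, Cdx1 and Isx, and 3 of 5 acinar markers, Cpa1, Ctrb1 and Prss2. Of the others, Fabp2, Lgr5 and Cela1 were Present on all 4 arrays, Vil1 on 3, and Cdx2 and Cel on 1 each. Clca1, of the goblet list, was Absent on both WT and Present on both G9aΔHep arrays. Its signals were low and overlapped, at 36.1 and 30.6 in WT and 50.4 and 25.6 in G9aΔHep liver. The summed signals in WT and then G9aΔHep liver were 192, 427, 311 and 257 for the goblet list, 291, 526, 285 and 393 for the gastric, 6571, 9694, 5353 and 10464 for the intestinal and 1396, 1062, 1254 and 1168 for the acinar list, so the genotypes overlapped in each. Most of the intestinal sum was Fabp2, at 6053, 9349, 4664 and 9808, and most of the acinar sum Cela1, at 1071, 801, 970 and 907. Hepatocyte markers, at 447175 and 417695 in WT and 438930 and 388493 in G9aΔHep liver, overlapped as well. The summed signal of 9 cholangiocyte markers was 2393 and 1846 in WT and 4591 and 2558 in G9aΔHep liver. The first G9aΔHep array was highest, as for Tff3, Wfdc12, Wfdc15b and 2310057J18Rik, and the second lay little above the first WT array. Cdh1 was the largest part of this sum, at 1463, 1080, 2430 and 1217, with overlapping groups. Of the 9 markers 4 were tested and 0 passed, Pkhd1 with a log2 difference of 1.96 (SE 0.38, adjusted p = 0.163), Tspan8 with 0.78 (SE 0.46, adjusted p = 0.634) and Sox9 with 0.71 (SE 0.47, adjusted p = 0.668). Tspan8 and Sox9 overlapped between genotypes, as did the untested Krt19 and Cftr. Krt19, Krt7, Epcam and Cftr were Present on 1 array each, in every case a G9aΔHep array, and Cldn4 on none. Both G9aΔHep signals lay above both WT signals for Pkhd1, Krt7, Epcam and Cldn4. In WT and then G9aΔHep liver Krt7 read 33.3, 82, 133 and 132, Epcam 61.6, 131, 175 and 228, and Cldn4 71.1, 16.4, 144 and 106. Most of these signals are near those of Absent probe sets. Stellate cell and fibroblast markers, 7 in number, summed to 3541 and 3767 in WT and 6515 and 3886 in G9aΔHep liver, and 0 of 6 tested passed, Acta2 having the smallest p (log2 difference 1.10, adjusted p = 0.198). Liver tumour and oncofetal markers, 8 in number, summed to 3120 and 1528 in WT and 6958 and 3305 in G9aΔHep liver, and 0 of 6 tested passed, Afp (3.46, adjusted p = 0.0957), Cd24a (1.71, adjusted p = 0.268) and Ly6d (0.74, adjusted p = 0.627) having the smallest p. In the stellate and oncofetal lists, as in the cholangiocyte list, both G9aΔHep sums lay above both WT sums, with the first G9aΔHep array highest. The oncofetal sums depended on Afp, at 252 and 116 in WT and 3058 and 1159 in G9aΔHep liver, and overlap without it. The part of these cells in the difference of the members was not tested.

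The marker sums of immune cells were set beside Slpi as well, though the arrays do not show which cells express it. Macrophage and Kupffer cell markers, all 8 of them detected, summed to 27763 and 41821 in WT and 61741 and 39838 in G9aΔHep liver, and 0 passed, with log2 differences of 0.88 for Lyz2 (adjusted p = 0.48) and 0.60 for Csf1r (adjusted p = 0.535). Wfdc17 had signals of 3825 and 5030 in WT and 8188 and 4795 in G9aΔHep liver. Slpi, Wfdc17 and the macrophage sum put the 4 arrays in the same order, the first WT, second G9aΔHep, second WT and first G9aΔHep array, which is a description over 4 arrays. Neutrophil markers, of which Camp, Cxcr2 and Mpo were not Present on any array, summed to 1271 and 876 in WT and 2660 and 452 in G9aΔHep liver and followed another order. The stellate cell and fibroblast sum was, like Slpi, lowest on the first WT and highest on the first G9aΔHep array. The cholangiocyte sum was also highest on the first G9aΔHep array but lowest on the second WT array. The part of any of these cells in the spread of Slpi was not tested.

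The genes most like each of the chosen members over the 4 arrays were found by the distance between log2 signals after each gene was centred on its own mean. Closest to Tff3 were Afp, the alpha-fetoprotein of fetal liver and liver tumours (distance 0.53), Asns, the asparagine synthetase (0.96), Enho, which encodes adropin (1.06), Mmp7, the matrix protease matrilysin (1.12), and Wfdc12 (1.12). Afp had signals of 252 and 116 in WT and 3058 and 1159 in G9aΔHep liver, Present on all 4 arrays, with adjusted p = 0.0957 from limma. It therefore resembled Tff3 between genotypes, and also within them, the first array being the higher one in both. Closest to Wfdc12 were Bhlhb9 (0.54), Wfdc15b (0.71), Rhox5, a homeobox gene of the testis and placenta (1.06), Afp (1.07) and Tafa2 (1.09). No gene was near 2310057J18Rik, since its difference was the largest, and Spaca1 (3.27), Tafa2 (3.63), Col5a2 (3.73), Olfr701 (3.82) and Tff3 (4.17) came closest. Genes with a large difference between genotypes in the same direction lie near one another by this measure, whatever their function.

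**Figure D4:**
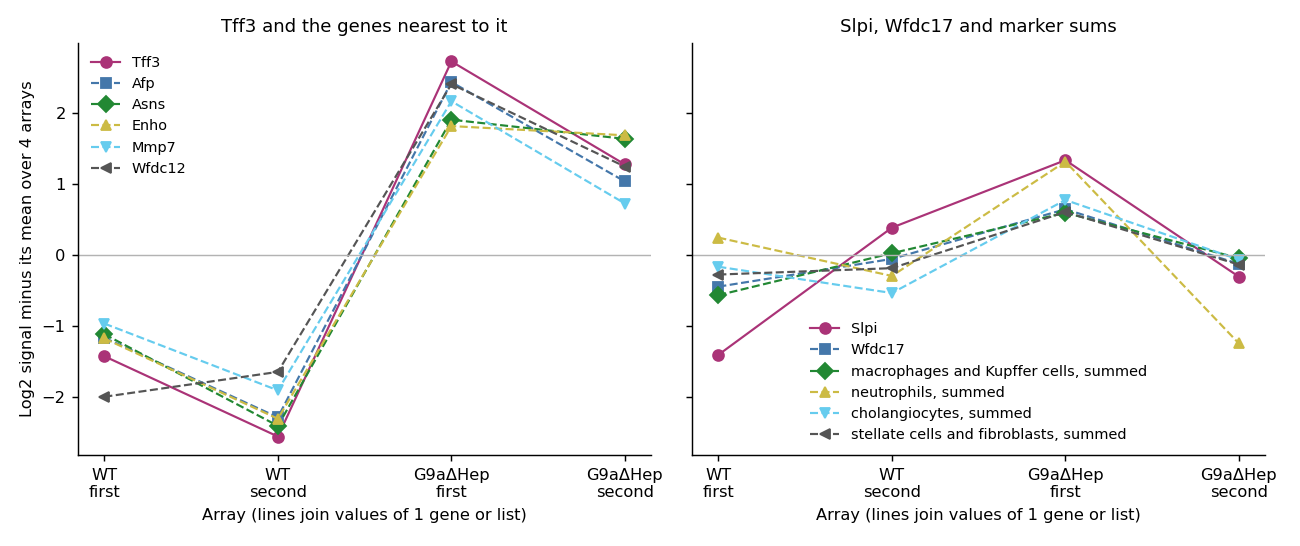
Log2 signal minus its mean over the 4 arrays, for Tff3 and the 5 genes nearest to it (left) and for Slpi, Wfdc17 and the summed signals of 4 lists of cell markers (right); lines join the values of 1 gene or list. Tff3 and Afp run nearly together, at 2.72 and 2.43 on the first G9aΔHep array, and Slpi is lowest on the first WT array, at -1.41, and highest on the first G9aΔHep array, at 1.33.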

How the data were processed

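Non-tumorous livers of 2 WT and 2 G9aΔHep mice were profiled with 1 array each, and genotypes were taken from the submitters' labels. The authors deposited MAS5 signals, that is, an intensity on a linear scale after background correction and scaling of the whole array. Each probe set also has a detection p-value and a call, deposited by the authors beside its signal. No MAS5 version was found in the sources. The 2% trimmed mean signal was 500.0 on every array, so no further normalization was applied. The authors' deposited series matrix held the same intensity values (largest relative difference 5e-06; column medians 83.6 to 92.9). Of 45101 probe sets, 64 were controls, 34945 named 1 gene, 932 several and 9160 none; genes were named only from the first kind, and their symbols were compared with RefSeq (GRCm38.p6) by Entrez identifier.

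Log2 signals of 10350 genes were tested with limma 3.58.1 in R 4.3.3 (lmFit, then eBayes with trend, no pseudocount, 2 residual and 4.02 prior degrees of freedom), with Benjamini-Hochberg adjustment over all of them at a threshold of 0.05. A gene was represented by the brightest (mean log2 signal) of its probe sets that 2 or more arrays called Present; members without such a probe set were read at the one they have. The fit was tested on simulated data, and repeated with the series matrix, other scalings, a pseudocount of 50, other filters, no trend, the methods' t-test, every probe set and each array left out. Between 41.3% and 43.9% of probe sets were Present on an array, and replicate arrays had Pearson correlations of 0.970 and 0.971 over genes' probe sets, against 0.959 to 0.967 between genotypes. P-values from limma set the difference between genotypes against the spread between the 2 mice of a genotype, moderated by that of other genes.

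The members, the 6 lists of related genes, the 10 marker lists and the rule for naming genes were chosen with earlier results of these data known. Named were the members, Ehmt2, in each list up to 4 genes past the threshold, and where none passed the 3 tested genes of smallest p (in marker lists only those that bear on a member), and the 5 genes nearest to Tff3, Wfdc12 and 2310057J18Rik; genes listed as detected or undetected, the genes of the chromosome 2 cluster and the remaining list members were named for these properties after their values were seen. Listed symbols without an annotated probe set were not analysed, and Muc19 was matched as Smgc. Hsf2bp was named as the neighbour with the lowest log2 difference. Promoters are from RefSeq.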

Additional observations from a re-analysis of the deposited data

How the results depend on the processing

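The log2 differences of Tff3, Wfdc12 and Wfdc15b moved by less than the spread between replicates under the series matrix, median centring, quantile normalization, a floor at the lowest Present signal and a pseudocount of 50. With 1 array left out they ranged from 3.26 to 4.71, 3.06 to 4.22 and 2.42 to 3.60; with 2 arrays a group such a shift is by construction smaller than the distance between them and is no sign of stability. That of 2310057J18Rik was 5.29 with the pseudocount, which shrinks differences from low signals, and 6.43 to 9.30 with 1 array left out. The members with non-overlapping groups, 5 higher and 0 lower, were 6 to 8 higher and 0 to 1 lower with 1 array left out, since a group of 1 overlaps less, and 4 higher after median centring or quantile normalization. Over all genes, 33 were called higher and 7 lower. These counts were 11 and 4 without a detection filter and 19 higher among genes Present on all 4 arrays. They were 0 and 0 without the mean-variance trend (unadjusted p under 0.05: 645 higher, 318 lower), 0 and 0 by the methods' t-test after adjustment (449 and 406), and 8 to 54 higher and 0 to 17 lower with 1 array left out (54 and 17 without the second G9aΔHep array). No list of related genes gained a call in any of these settings. The median of trefoil partners, -0.18 over 3 genes, was -0.45 to 0.45 with 1 array left out. No paired analysis was possible because the labels give no replicate number that the genotypes share. Signals below about 180.9, the highest of the 95% quantiles of Absent signals, are uncertain. This touches the first WT value of Wfdc12, the WT values of Wfdc15b and 2310057J18Rik, all values of Tff2 and most of Wfdc3. The second WT value of Wfdc12, at 202, the WT values of Tff3 and all values of Wfdc1 lay above it. They were called Absent and are uncertain as well.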
